A study of Mus musculus with 2 samples.

Results

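The long non-coding RNAs (lncRNAs) described here are C730036E19Rik, Gm10804, 1810008I18Rik and Platr4, picked by name as lncRNAs tied to hepatic metabolism. They were found by their Ensembl gene identifiers, with names from GENCODE M21, and are 4 of the 614 known lncRNAs listed for mouse liver. RNA was sequenced from wild-type C57BL/6 mice of 27 weeks on a high fat diet (HFD, 60% fat, 23 weeks) and from wild-type C57BL/6 mice of the same age on a normal diet (ND). Each diet had 1 library, so no value has a replicate error, the diets were not tested against each other, and every interval covers counting error only. The labels give hepatocyte as the cell type, while the protocol extracted removed and frozen liver, and the sources used here do not say how many animals a library holds. The tables list lncRNAs only, so the coding markers of hepatocytes could not be checked. In RNA of a whole tissue, fewer cells of a type and less RNA per cell cannot be told apart.

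LncRNAs are transcripts that are not translated and that can act in the nucleus or cytoplasm by binding proteins, DNA or other RNAs. In liver, some of them are known to tune lipid and glucose metabolism. C730036E19Rik is also called lncLSTR, a liver-enriched transcript of mice whose loss lowers plasma triglyceride through an effect on bile acid synthesis and apolipoprotein C2. Gm10804 has been studied in mouse hepatocytes in connection with their glucose and lipid metabolism. Platr4 was named as a pluripotency-associated transcript of mouse embryonic stem cells and is also known as a clock-controlled liver lncRNA that restrains the NLRP3 inflammasome in steatohepatitis. No role is given here for 1810008I18Rik.

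None of the 4 lncRNAs passed the rule for a difference between the libraries, which asked for a ratio of 2-fold or more and for 20 or more reads in the library with the higher level. Only C730036E19Rik and Gm10804 reached the read minimum. In the table as a whole, the minimum was reached by 364 lncRNAs, and 58 of them passed the rule (15.9%), and 2 members are too few to set against this share. At 1.5-fold, Gm10804 passed as lower in the HFD library, 1 of 2, against 18.1% of all lncRNAs tested in that direction. This call at 1.5-fold (0.585 on the log2 scale) ended when the 5 most abundant lncRNAs were left out of the totals (log2 ratio -0.58) and with a pseudocount of 5 reads (-0.56). C730036E19Rik had the same number of reads in both libraries. 1810008I18Rik stayed under the read minimum, and Platr4 was close to the lower limit of what was counted.

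The promoter sequences show what lies at the starts of these genes. RefSeq (GRCm38.p6) gave windows from 250 bases before to 50 bases after the start for 3 of the 4 genes, and the 3 windows below are those of the 2 lncRNAs with most reads and the inner start of 1810008I18Rik, which holds liver factor motifs. Capitals mark motif matches, and windows in lower case hold none of the motifs searched.
C730036E19Rik (chr1:151137784-151138083, plus strand): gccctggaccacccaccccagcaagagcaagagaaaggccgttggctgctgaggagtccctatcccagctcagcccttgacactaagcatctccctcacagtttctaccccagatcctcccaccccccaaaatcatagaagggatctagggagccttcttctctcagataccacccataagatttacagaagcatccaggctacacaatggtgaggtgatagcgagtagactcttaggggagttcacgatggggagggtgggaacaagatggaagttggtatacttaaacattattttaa
Gm10804 (chr2:93452569-93452868, plus strand): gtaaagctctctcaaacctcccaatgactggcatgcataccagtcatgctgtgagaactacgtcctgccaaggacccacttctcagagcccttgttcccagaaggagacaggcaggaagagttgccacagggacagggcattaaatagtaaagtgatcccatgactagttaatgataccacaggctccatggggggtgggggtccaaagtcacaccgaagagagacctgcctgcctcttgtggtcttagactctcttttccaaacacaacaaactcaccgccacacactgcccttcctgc
1810008I18Rik, inner start (chr7:65803783-65804082, plus strand): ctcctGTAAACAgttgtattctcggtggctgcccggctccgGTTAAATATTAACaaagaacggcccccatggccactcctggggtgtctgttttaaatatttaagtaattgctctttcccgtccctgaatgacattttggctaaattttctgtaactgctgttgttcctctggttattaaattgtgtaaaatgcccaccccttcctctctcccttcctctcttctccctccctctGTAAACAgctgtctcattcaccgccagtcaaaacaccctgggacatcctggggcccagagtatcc

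The motifs were searched on both strands, and they were chosen with the sequences in view. They were the TATA box TATAAA, the forkhead core TGTTTAC bound by FOXA factors, the nuclear receptor half-site AGGTCA, the E-box CACGTG and the HNF1 palindrome, which is GTTAAT, any 1 base and ATTAAC, with up to 1 mismatch. Forkhead and HNF1 factors are known regulators of liver genes. The inner window of 1810008I18Rik held the forkhead core 2 times, starting 245 and 15 bases before the start. Both lie on the opposite strand and so appear as GTAAACA in the printed window. It also held GTTAAATATTAAC, a match to the HNF1 palindrome with 1 mismatch, starting 209 bases before the start. Of 32817 promoter windows of the same length, 3.65% held a forkhead core, 0.110% held 2 or more, and 0.207% held the HNF1 palindrome with up to 1 mismatch. Because the motifs and the printed window were picked with the sequences in view, such shares do not measure how unusual the matches are. The motifs did not overlap each other in this window.

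The outer window of 1810008I18Rik, not printed, held 1 nuclear receptor half-site that began 127 bases before the start and 1 E-box that began 9 bases into the transcript. Half-sites were present in 16.3% and E-boxes in 7.15% of all windows. A TATA box was found in none of the 4 windows and in 13.6% of all windows. C730036E19Rik and Gm10804 had 3 CpG dinucleotides each in their windows and 1810008I18Rik had 6 in both of its windows, against a median of 7 over all windows. Their GC content was between 47.7% and 52.0%, against a median of 52.7%. These matches describe letters in a window and were not tested as binding sites.

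C730036E19Rik (ENSMUSG00000102095) is annotated as a lincRNA on chromosome 1, plus strand, at 151138034 to 151142345 of GRCm38. Its 1 transcript has 5 exons and 1102 bases. The pseudogene Gm8941 ends 253 bases before its start on the same strand, and the nearest coding gene, Gm47985, begins 40.2 kb downstream. In RefSeq the gene runs 1750 bases further at its end, so reads from that stretch depend on which gene model was counted.

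Gm10804 (ENSMUSG00000075025) lies on chromosome 2, plus strand, at 93452819 to 93469871. It has 4 annotated transcripts, the longest of 2244 bases, and 3263 exon bases in all. Its span shares 10322 bases with that of Cd82, the gene of a tetraspanin membrane protein on the opposite strand, but its exons share none with exons of Cd82. The nearest Cd82 transcript start is separated from the start of Gm10804 by 135 bases and points away from it, so the printed window covers both starts. Unspliced Cd82 RNA over the shared span was not told apart from Gm10804, and its part in the values was not tested.

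1810008I18Rik (ENSMUSG00000100094) lies on chromosome 7, plus strand, at 65803111 to 65806449. It has a transcript of 3 exons and 819 bases and an unspliced transcript of 2419 bases that begins 920 bases further in. The nearest coding gene is Pcsk6, a proprotein convertase gene, which begins 55.3 kb downstream.

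Platr4 (ENSMUSG00000097639) lies on chromosome 3, minus strand, at 41484024 to 41493192. It has 3 transcripts of 2 exons each, with 2553 exon bases in all. The RefSeq model of the gene stops 3657 bases earlier at its 3′ side, and so leaves out the last exon of the transcript of 497 bases. The nearest coding gene is Jade1, which encodes a subunit of a histone acetyltransferase complex and begins 62.5 kb upstream on the other strand.

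**Figure D1:**
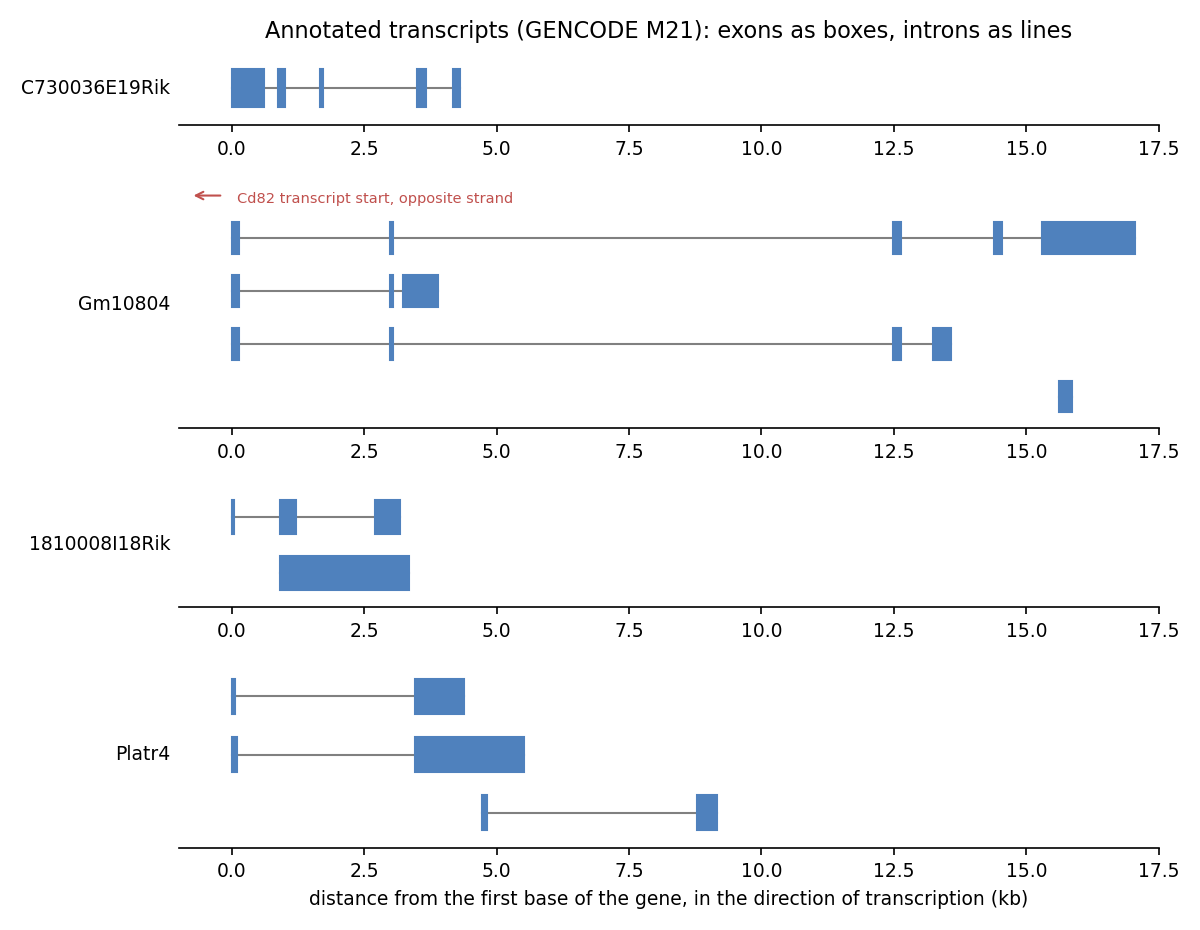
Annotated transcripts of the 4 lncRNAs in GENCODE M21, drawn to 1 scale as distance in kb from the first base of each gene in the direction of transcription. Boxes are exons and lines are introns. Gm10804 is the longest gene, with 17053 bases, and its start lies back to back with a transcript start of Cd82, while 1810008I18Rik is the shortest, with 3339 bases.

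A feature shared by all 4 lncRNAs, which did not enter their choice, is that none of their exon bases lies in an exon of another annotated gene on either strand. Of 606 known lncRNAs matched to the annotation, 278 share this and 328 do not. The overlaps are those of GENCODE M21, and the sources used here do not say which annotation was counted or whether strand was used. The part of RNA from the opposite strand in the values was not tested. None of the annotated genes within 150 kb of any of the 4 was itself listed in the table of known lncRNAs. Among lncRNAs without shared exon bases, 30 of the 128 with enough reads (23.4%) passed the 2-fold rule, against 0 of the 2 members with enough reads.

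Copies found elsewhere in the transcriptome differed between the 4. In a BLAST search, Gm10804 and 1810008I18Rik had no match of at least 50 bases at 90% identity or more in another gene's transcript. C730036E19Rik had such matching stretches in 108 other genes, the longest match being 61 bases. Platr4 had them in 89 other genes, in 23 of them over at least 100 bases, with a longest match of 150 bases. None of the 4 had a match found of at least 100 bases at 95% identity. The search starts from long runs of identical bases and can miss stretches whose mismatches are spread out, so these numbers may be too low. Reads from these stretches could fit several genes, and so could have been misassigned or left out of the counts. Their part in the values was not tested.

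Summed over known lncRNAs, the HFD library held 193260 reads and the ND library 241812, and levels are given as CPM, reads per 1000000 reads of that table. Values above 1 read came out as even numbers of whole reads, so intervals were computed on pairs of 2 reads. The 2 markers of other cells differed in depth, against a median of 24 reads (HFD) and 30 reads (ND) over all known lncRNAs. Mir155hg, of lymphoid and myeloid cells, had 8 reads in the HFD library and 2 in the ND library, and Gm12840, taken as a mesenchymal marker, had 46 reads in the HFD library and 88 in the ND library, a log2 ratio of -0.61 (95% interval -1.41 to 0.15).

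C730036E19Rik, the triglyceride-linked lncLSTR, had 60 reads in the HFD library (310.0 CPM, 95% exact binomial interval 209 to 443) and 60 reads in the ND library (248 CPM, 167 to 354). The 2 intervals overlapped, and the difference in CPM comes from the totals to which the equal read numbers were scaled. The log2 ratio of HFD over ND was 0.32 (95% interval -0.46 to 1.10). With the same 60 pairs in all, at least 35 pairs in the HFD library (1.75-fold higher) or at most 18 (1.86-fold lower) would have been needed for the interval to leave out a ratio of 1. Smaller differences were not detectable at this depth.

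Gm10804 had 66 reads in the HFD library (341 CPM, 235 to 479) and 126 reads in the ND library (520.2 CPM, 399.8 to 666). The HFD value was the lower of the 2, and the intervals of the levels overlapped. Its log2 ratio was -0.61, with a 95% interval of -1.26 to 0.02 that included 0. The split was 33 pairs in the HFD library against 63 in the ND library, and 32 pairs in the HFD library would have put the whole interval below 0. Among the 306 lncRNAs that reached 20 reads in each library, 36 had a lower ratio than Gm10804 and 222 had a lower ratio than C730036E19Rik. The marker Gm12840 had almost the same ratio as Gm10804. The other marker, Mir155hg, went the other way on few reads, with a log2 ratio of 2.32 (95% interval -1.01 to 7.95). The part of other cells in the result was not tested.

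1810008I18Rik had 8 reads in the HFD library (41.3 CPM, 11.3 to 106) and 16 reads in the ND library (66.1 CPM, 28.5 to 130.2). The 4 pairs (HFD) and 8 pairs (ND) behind these levels gave a log2 ratio of -0.68 (95% interval -2.86 to 1.22). Only a split with at least 10 or at most 1 of the 12 pairs in the HFD library would have left a ratio of 1 outside the interval.

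Platr4, the clock-controlled lncRNA, had 2 reads in the HFD library (10.3 CPM, 0.262 to 57.6) and 4 reads in the ND library (16.5 CPM, 2.0 to 59.7). Its log2 ratio was also -0.68, with a 95% interval of -6.56 to 3.59. No split of its 3 pairs could have given an interval that leaves out a ratio of 1, so no difference between the libraries was detectable for Platr4 at this depth. Another 22 known lncRNAs had the same read numbers in both libraries.

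**Figure D2:**
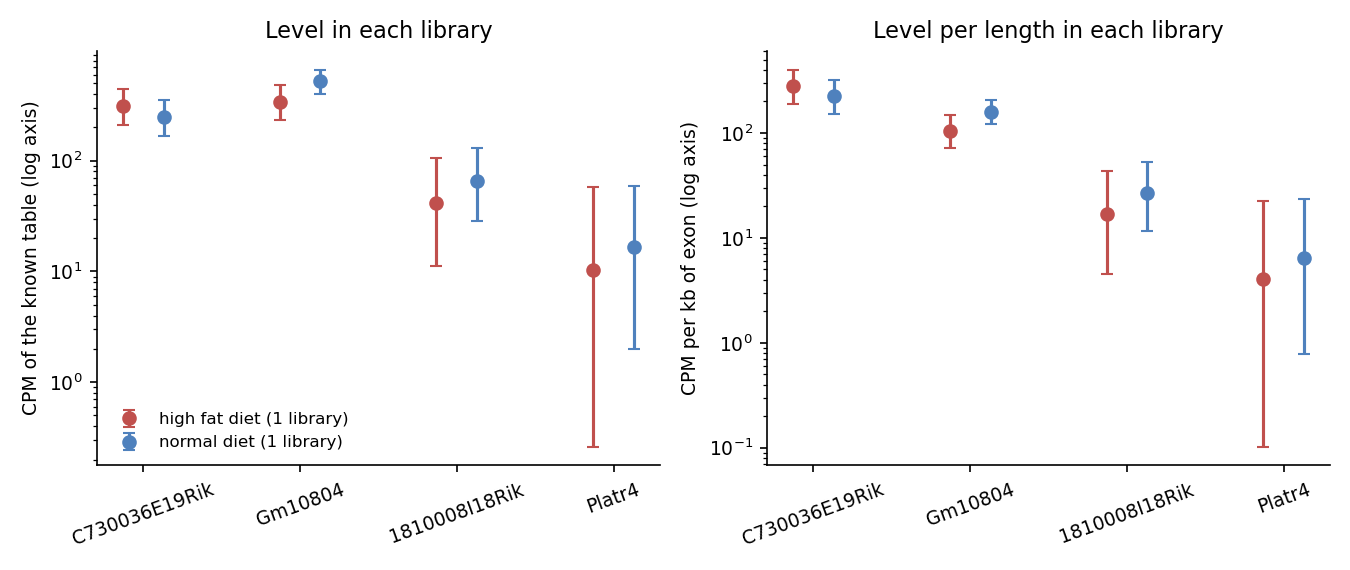
Levels of the 4 lncRNAs in the high fat diet library (HFD, red) and the ND library (blue), as CPM of the known table on the left and as CPM per kb of exon on the right, both on log axes. Points are the values of 1 library and bars are exact 95% intervals of the read pairs, binomial on the left and Poisson on the right. C730036E19Rik and Gm10804 lie at 248 to 520.2 CPM, above 1810008I18Rik at 41.3 (HFD) and 66.1 (ND) CPM and Platr4 at 10.3 (HFD) and 16.5 (ND) CPM.

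**Figure D3:**
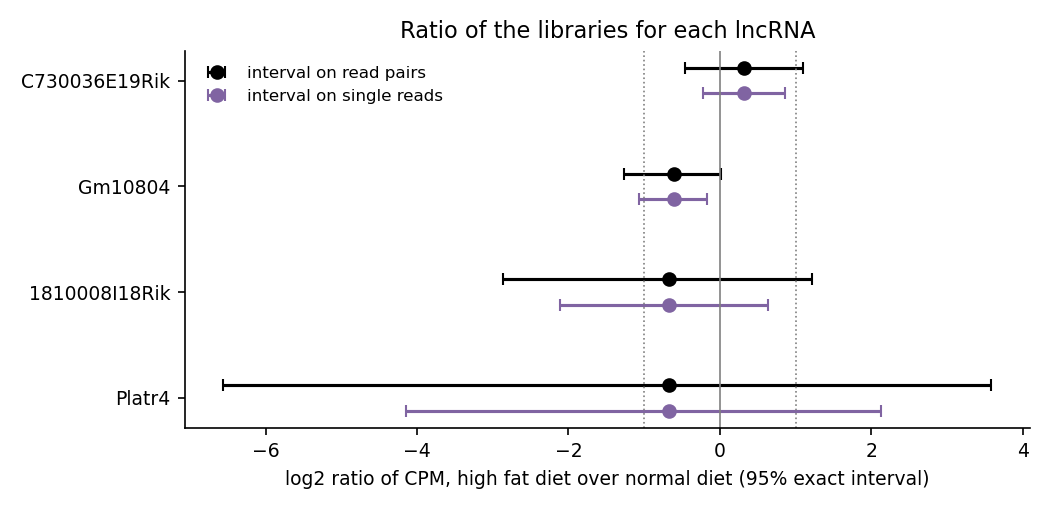
Log2 ratio of CPM, HFD over ND, for each lncRNA, with 95% exact intervals computed on read pairs (black) and on single reads (purple). The solid line marks 0 and dotted lines mark 2-fold. All 4 intervals on pairs include 0, and the interval of Gm10804 on single reads, -1.06 to -0.17, does not.

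Per length of the GENCODE M21 exons, the order of the 4 was C730036E19Rik, Gm10804, 1810008I18Rik and Platr4 in both libraries. The RefSeq gene of C730036E19Rik ends 1750 bases later, and the order with RefSeq lengths was not tested. C730036E19Rik had 281 CPM per kb of exon in the HFD library (95% Poisson interval 190 to 402) and 225 CPM per kb in the ND library (152 to 321). Gm10804 followed with 105 CPM per kb (71.9 to 147) in the HFD library and 159 CPM per kb (123 to 204) in the ND library. 1810008I18Rik had 16.8 CPM per kb in the HFD library and 26.8 in the ND library, and Platr4 had 4.05 CPM per kb in the HFD library and 6.47 in the ND library.

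Neighbours in this order did not all differ beyond counting error. In the HFD library C730036E19Rik was 2.69 times Gm10804 per kb (95% interval 1.59 to 4.55), while in the ND library the ratio was 1.41 and its interval of 0.881 to 2.21 included 1. Gm10804 was 6.23 times 1810008I18Rik in the HFD library (2.21 to 24.2) and 5.94 times in the ND library (2.84 to 14.4). 1810008I18Rik was 4.15 times Platr4 in both, with intervals of 0.41 to 204 in the HFD library and 0.827 to 40.1 in the ND library. With the length of the longest transcript in place of all exon bases, Gm10804 (232 CPM per kb) came before C730036E19Rik (225 CPM per kb) in the ND library.

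The 4 were set beside all lncRNAs without shared exon bases. The median of those 278, the 4 included, was 43.7 CPM per kb in the HFD library and 45.0 CPM per kb in the ND library. C730036E19Rik was exceeded by 51 of them in the HFD library and by 62 in the ND library, and Gm10804 by 89 in the HFD library and 76 in the ND library. 1810008I18Rik was exceeded by 200 in the HFD library and 178 in the ND library, and Platr4 by 255 in the HFD library and 245 in the ND library. C730036E19Rik and Gm10804 thus lay above the median in both libraries. The values of 1810008I18Rik and Platr4, although named as liver lncRNAs, lay below it in both. For 1810008I18Rik the Poisson interval in the ND library, 11.6 to 52.9 CPM per kb, included the median. Its interval in the HFD library, 4.57 to 43.0 CPM per kb, ended just under the median. The intervals of Platr4, 0.102 to 22.6 (HFD) and 0.783 to 23.4 (ND) CPM per kb, lay below the median.

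The proportion of C730036E19Rik to Gm10804 does not depend on how a library is scaled. It was 0.909 in the HFD library and 0.476 in the ND library, an odds ratio of 1.90 with an exact 95% interval of 0.937 to 3.88. The interval included 1, as did those of the other 5 of the 6 pairs that the 4 lncRNAs form. In contrast, Gm10804 and 1810008I18Rik stood in nearly the same proportion, 8.25 in the HFD library and 7.88 in the ND library, although the interval of their odds ratio ran between 0.257 and 5.11. These intervals do not show that any pair of them moved alike.

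Together the 4 lncRNAs held 136 reads in the HFD library and 206 reads in the ND library. Of the totals to which CPM values were scaled, slightly larger than the listed reads, this was 0.0703% (95% Clopper-Pearson interval 0.0546 to 0.0891) in the HFD library and 0.0851% (0.0694 to 0.103) in the ND library. C730036E19Rik and Gm10804 made up 92.6% of these reads in the HFD library and 90.3% in the ND library. Of the 4 ratios, 3 were below 0, with a median log2 ratio of -0.64, against a median of 0.03 over all 614 known lncRNAs, of which 296 were below 0 and 318 above. No direction is drawn from 4 values whose intervals all included 0.

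**Figure D4:**
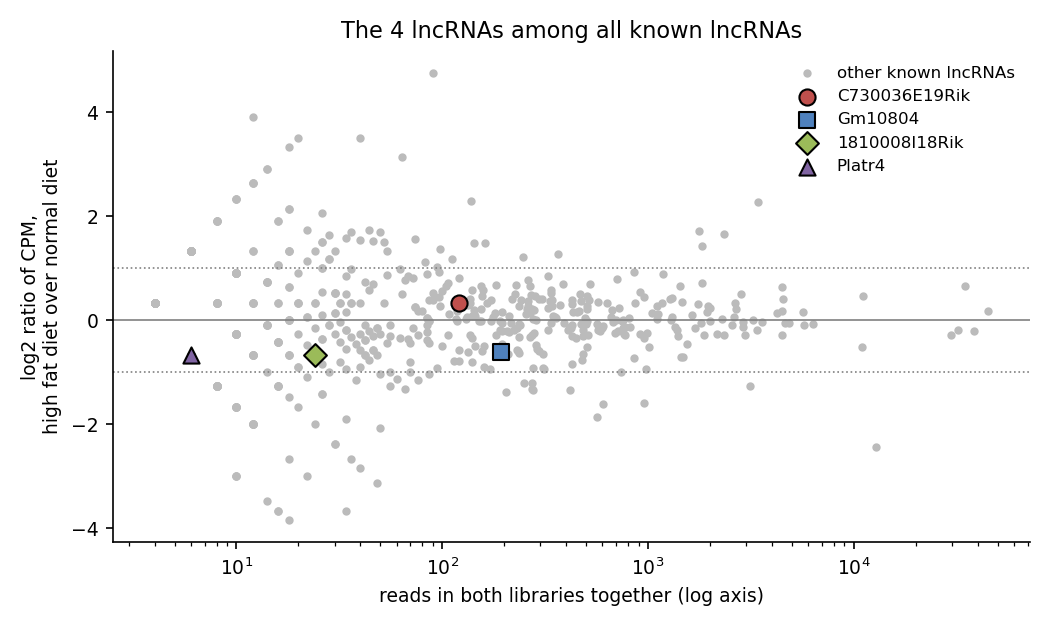
Log2 ratio of CPM, HFD over ND, against the reads of both libraries together on a log axis, for the 614 known lncRNAs (grey) and the 4 lncRNAs (coloured). Dotted lines mark 2-fold. All 4 lie between the dotted lines, with Platr4 and 1810008I18Rik at the left, where few reads spread the ratios widely.

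In the authors' deposited table none of the 4 is marked as significant. The authors' deposited table gives adjusted p-values of 0.551 for C730036E19Rik, 0.137 for Gm10804, 0.561 for 1810008I18Rik and 0.681 for Platr4. The last of these is smaller than the unadjusted value of 0.692 in the authors' deposited table. A Benjamini-Hochberg adjustment cannot give this, and which adjustment the authors used was not tested. Among all known lncRNAs, 172 had an adjusted value below the unadjusted one. The unadjusted value of Gm10804 in the authors' deposited table was 0.0430.

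The lncRNAs with the most similar levels were found by the distance between log2 CPM values over the 2 libraries, which is a description with no test. For C730036E19Rik these were Gm26531 (60 reads in the HFD library and 58 in the ND library, distance 0.05), Gm28818 (56 HFD and 62 ND reads, distance 0.11) and Gm13063 (66 in each, distance 0.19). Gm15409 had the same reads as Gm13063 and so the same distance. For Gm10804 they were Gm15628 (72 HFD and 124 ND reads, distance 0.13), Gm26542 (70 HFD and 138 ND reads, distance 0.16) and Gm27017 (72 HFD and 110 ND reads, distance 0.23). 1010001N08Rik had the same reads as 1810008I18Rik in both libraries, followed by Gm16630 (8 HFD and 18 ND reads) and Gm17276 (8 HFD and 14 ND reads). For Platr4 the first by identifier of the 22 with identical reads were 4833413E03Rik, 4632404H12Rik and Gm15611.

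A wider list held 20 lncRNAs chosen as tied to hepatic metabolism. Only 16 of these names are in GENCODE M21 and could be matched. A row in the table was found for 7, the 4 above and Gm26917, Neat1 and Malat1. Of the 5 that reached the read minimum, 1 passed the 2-fold rule as lower in the HFD library and 0 as higher, against 8.24% and 7.69% of all lncRNAs tested. The 1 was Neat1, the scaffold of paraspeckles. The median log2 ratio of the 7 was -0.61, against 0.03 over all known lncRNAs. This median is the value of Gm10804 itself, and 4 of the 7 are the lncRNAs described above. Neat1 had a log2 ratio of -1.59 (interval -1.92 to -1.27) and Gm26917 one of -0.53 (-0.61 to -0.45). Malat1 went the other way, with 0.65 (0.44 to 0.87). No direction is drawn from this list. The levels of the 7 differ widely, since Gm26917 had 3918 reads in the HFD library and 7062 in the ND library, while Platr4 had 2 (HFD) and 4 (ND).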

How the data were processed

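Liver RNA of 2 mouse samples, 1 per diet, was sequenced, and samples were grouped by the diet label. The tools named in the submitters' processing notes are HISAT2, HTSeq and DESeq, and the build is mm8. The sources used here give no versions, annotation or strand setting. The deposited values are CPM, scaled by the authors within the known table. The authors' fold change is the ratio of the HFD to the ND value, the deposited log2 column is its log2, and the authors' p-values are printed only as theirs.

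Whole reads were recovered by dividing each value by its column minimum (100% whole to within 1e-06). Recovered numbers other than 1 were even, and values of 1 read were taken as 0. CPM totals corresponded to 193538 reads in the HFD library and 242194 in the ND library. Of the 614 identifiers, 606 matched GENCODE M21, whose GRCm38 coordinates are used, since the tables hold no positions. Exact 95% intervals were binomial, Poisson or conditional (odds ratios). They cover counting error only, and a count test across libraries has no residual degrees of freedom with 1 library per diet. The interval and call code was tested on simulated data. Named lncRNAs are the 4 members, the 3 nearest to each in level, neighbouring genes, the listed members of a hepatic list and 2 markers of other cells. Members, lists and rules were chosen with earlier results of these data known. Tools were Python 3.11.15, pandas 2.3.3, scipy 1.17.1, bedtools 2.31.1 and BLAST+ 2.17.0. Alternatives covered scaling, pseudocount, thresholds, pairs against reads, and gene length. A table of 272 lncRNAs with numbers in place of names was scaled separately and not compared.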

Additional observations from a re-analysis of the deposited data

How the results depend on the processing

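Over all known lncRNAs, 28 were higher and 30 lower in the HFD library. At 1.5-fold 58 were higher and 66 lower, without a read minimum 78 and 68, and with a minimum of 100 reads 8 and 11. A binomial test of read pairs, exact and with Benjamini-Hochberg values under 0.05, added after the data were seen, left 15 and 16. It compares these libraries, not the diets. By construction, each of these settings changes the set that can be called. Of the alternative log2 ratios of the 4 lncRNAs, 14 could differ from the reported value. These stayed within their counting intervals with 0 changes of sign, and median-ratio scaling moved them by 0.01. All 4 intervals are wide against what these settings can move, so staying inside them was close to certain and is no measure of stability. With a pseudocount of 5 reads the log2 ratio of Platr4 was -0.04, that of 1810008I18Rik -0.37 and that of Gm10804 -0.56. Gm10804 had -0.58 without the 5 most abundant lncRNAs in the totals, and both values end its call at 1.5-fold. On single reads the interval of Gm10804 was -1.06 to -0.17 and left out 0, since counting each pair as 2 independent reads narrows it. With the longest transcript as length, Gm10804 had 152 CPM per kb in the HFD library and 232 in the ND library. It then came before C730036E19Rik in the ND library and stayed after it in the HFD library. Leaving out exon bases shared with other genes could change nothing, since the 4 share none. No paired analysis was possible because a single library stands for each diet, which also means that none could be left out. Depth limits 1810008I18Rik and Platr4 most, as it does the 250 of 614 known lncRNAs below 20 reads.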

Other observations

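In the table of numbered lncRNAs, which has its own scaling and no names, no entry had the read numbers of C730036E19Rik, Gm10804 or 1810008I18Rik in both libraries, while 9 entries had those of Platr4, 2 reads in the HFD library and 4 in the ND library. Whether any of the 9 is the same transcript was not tested.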
